A study of Drosophila melanogaster with 2 samples.

Results

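Peaks of scrt-GFP at divergent coding promoter pairs numbered 967 among 6407 reproducible peaks (15.1%, Wilson 95% interval 14.2 to 15.99). A divergent pair was made of 2 protein-coding genes that are transcribed away from each other, with the minus-strand transcription start site (TSS) at the lower coordinate, the plus-strand TSS at the higher one and at most 1000 bp between them. A peak was a member if its summit lay within 500 bp of a TSS of such a pair. The data come from chromatin immunoprecipitation and sequencing (ChIP-seq) in Drosophila melanogaster, in a transgenic line named scrt-GFP that carries scrt, the gene of the Snail-family zinc-finger factor scratch, fused at its C terminus to GFP. Both samples, biological replicates 3 and 4, are whole embryos of mixed sex collected at 4 to 24 h, so they form 1 group without a second genotype or treatment, and all embryonic cell types are mixed in them. The labels describe both libraries as input controls while naming scrt as the antibody target, and they were treated here as scrt immunoprecipitations. Each replicate had a list of 30000 peaks on assembly dm6, and the 6407 peaks that passed the irreproducible discovery rate (IDR) threshold are called the optimal list. Read depth is unknown, and intervals on shares cover counting error only.

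Divergent promoters place 2 TSSs on either side of a shared stretch of open chromatin, from which transcription starts in both directions. In the compact fly genome this arrangement is common, and many of the genes involved act in basic functions such as translation, mitochondrial respiration or protein turnover. Factors known for such promoters in flies are DREF, which binds the DNA replication-related element (DRE) TATCGATA, and M1BP, which binds core promoter motif 1, here searched as GGTCACACT. GAGA repeats and the TATA box are better known from regulated, one-directional promoters. The Snail family, to which scratch belongs, binds E-boxes of the form CAGGTG and acts mainly as a repressor in animals. The same peaks are therefore described below by gene pair, by position between the TSSs, by replicate and by these motifs.

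The intervals between both TSSs are shown for 7 pairs, to let the summit and the motifs be seen in the sequence. The first 6 pairs are those of highest signal with the summit between TSSs 60 to 300 bp apart and sequence eligible for printing, and the last, fws/Lamtor3, is the highest of them with a DRE. Each sequence is the plus strand of assembly dm6 from the minus-strand TSS to the plus-strand TSS. Capitals mark, on either strand, the DRE TATCGATA, motif 1 as GGTCACACT, the E-boxes CAGCTG and CAGGTG, the longer CAACAGGTG, the 6-mer GCAACA, the repeat GAGAGA and the TATA box as TATAAA.
bol/Dhpr (chr3L:9134405-9134560): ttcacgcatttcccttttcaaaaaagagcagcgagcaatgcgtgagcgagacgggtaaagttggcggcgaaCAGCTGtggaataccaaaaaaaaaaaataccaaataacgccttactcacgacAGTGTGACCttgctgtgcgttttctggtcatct
Art3/mRpS10 (chr3R:15229408-15229665): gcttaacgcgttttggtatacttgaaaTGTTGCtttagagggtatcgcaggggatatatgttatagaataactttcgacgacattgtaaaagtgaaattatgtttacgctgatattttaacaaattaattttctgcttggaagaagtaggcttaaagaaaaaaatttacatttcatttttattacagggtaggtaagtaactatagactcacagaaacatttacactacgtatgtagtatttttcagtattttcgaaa
pll/TfIIA-L (chr3R:27253182-27253430): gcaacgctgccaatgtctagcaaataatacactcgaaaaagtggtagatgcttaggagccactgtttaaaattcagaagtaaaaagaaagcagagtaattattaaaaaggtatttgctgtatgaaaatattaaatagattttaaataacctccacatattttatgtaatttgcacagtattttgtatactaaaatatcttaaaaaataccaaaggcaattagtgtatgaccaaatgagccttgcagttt
RpL34b/CG8132 (chr3R:9401226-9401495): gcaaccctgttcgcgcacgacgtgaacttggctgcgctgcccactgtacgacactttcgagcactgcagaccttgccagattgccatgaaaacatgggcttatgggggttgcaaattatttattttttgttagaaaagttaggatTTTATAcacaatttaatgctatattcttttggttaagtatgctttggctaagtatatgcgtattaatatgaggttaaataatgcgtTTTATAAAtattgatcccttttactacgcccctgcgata
CG7582/Gycalpha99B (chr3R:29682278-29682503): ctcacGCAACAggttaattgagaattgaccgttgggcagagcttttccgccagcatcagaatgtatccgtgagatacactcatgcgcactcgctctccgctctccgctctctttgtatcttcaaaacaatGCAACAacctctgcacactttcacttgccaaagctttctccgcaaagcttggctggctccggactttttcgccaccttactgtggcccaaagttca
CG13390/CG17294 (chr2L:8376797-8377035): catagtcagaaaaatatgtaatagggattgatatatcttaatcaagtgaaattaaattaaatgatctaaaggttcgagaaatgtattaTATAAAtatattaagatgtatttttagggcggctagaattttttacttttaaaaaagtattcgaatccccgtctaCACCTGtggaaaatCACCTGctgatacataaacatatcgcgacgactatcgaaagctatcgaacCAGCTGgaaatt
fws/Lamtor3 (chr2L:17481029-17481231): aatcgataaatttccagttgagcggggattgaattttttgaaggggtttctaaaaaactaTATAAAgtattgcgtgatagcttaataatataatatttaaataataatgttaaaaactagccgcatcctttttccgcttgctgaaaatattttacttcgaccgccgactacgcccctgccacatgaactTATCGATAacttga
The summits fell at base 141 of 156 in bol/Dhpr, at base 127 of 258 in Art3/mRpS10, at base 5 of 249 in pll/TfIIA-L and at base 136 of 270 in RpL34b/CG8132. They fell at base 8 of 226 in CG7582/Gycalpha99B, at base 103 of 239 in CG13390/CG17294 and at base 136 of 203 in fws/Lamtor3. These intervals thus held summits close to 1 TSS as well as summits in the centre of the gap. The interval of pll/TfIIA-L held none of the motifs, and that of bol/Dhpr held motif 1 on the minus strand. Both pairs had GCAACA within 100 bp of the summit, but not inside the printed interval.

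Genes in divergent pairs had a summit at a TSS more often than genes outside them. The Ensembl annotation held 2667 divergent pairs, made of 5052 of 13945 coding genes (36.2%). Of these pairs, 928 (34.8%, 33.0 to 36.6) had an optimal summit within 500 bp of one of their paired TSSs. Counted by gene, 32.7% of the genes in pairs (1652 of 5052, interval 31.4 to 34.0) had a summit within 500 bp of a TSS, against 15.9% of the coding genes outside pairs (1418 of 8893, 15.2 to 16.7). Over all coding genes the share was 22.0%. Because 2 genes of a pair can count the same summit, the length covered was also compared. The windows around paired TSSs held 967 summits in 3577 kb, or 270.4 per 1000 kb, against 159.7 per 1000 kb around the other coding TSSs and 30.0 per 1000 kb in the rest of the chromosome arms. Overlapping windows were merged, so the windows of pairs hold more TSSs per kb, and this density does not correct for that. The 967 summits went with 6036 paired TSS positions, and 1878 summits with 13216 other coding TSS positions. By TSS position the classes thus lay much closer together than by length. Among genes with 1 annotated TSS the shares were 27.3% in pairs and 10.8% outside them. Here too a gene in a pair can count a summit at its partner's TSS, so this comparison does not remove that effect. In 737 of the 928 pairs with a summit (79.4%), both genes had a summit within 500 bp of one of their TSSs. Where the TSSs are at most 500 bp apart, any summit between them is within 500 bp of both. This share thus follows in part from the spacing and does not show separate binding at both genes.

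Each member was assigned to the pair with the nearest TSS, which gave 839 pairs with 1669 distinct genes. Of these pairs, 720 held 1 member, 110 held 2 and 9 held 3 or more. Members were found on all large arms, with 191 on 2L, 174 on 2R, 219 on 3L, 273 on 3R and 110 on X, and with 0 on chromosome 4. The peaks are not all separate intervals. The 967 members were 938 distinct intervals, and 57 members shared their interval with another optimal summit. In 99 members the annotated genes of the pair overlapped each other elsewhere in their length.

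The signal of the members was somewhat higher than that of peaks away from promoters, and close to that of other coding promoters. The signal is the authors' enrichment value and can be compared only within a list. Its median was 389 at the members (quartiles 268 and 696, range 193 to 5470), against 362 at peaks of other coding promoters (quartiles 254 and 682), 313 at peaks away from coding promoters and 333 over all optimal peaks. The 95% interval of the median was 368 to 413 for the members and 349 to 376 for the other coding promoters, and these intervals overlap. Members made up 21 of the 100 optimal peaks of highest signal and 214 of the best 1000 (21.4%, 18.97 to 24.0), against 15.1% of the whole list. Members whose summit lay between the TSSs had a median of 414 (n = 606), against 356 for those outside (n = 361).

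The member of highest signal, 5469.8, lay at Ugalt, which encodes a nucleotide-sugar transporter of the Golgi, and eIF2Bbeta, a subunit of the exchange factor for translation initiation factor eIF2. Its summit was 43 bp from the TSS of Ugalt on X, with rank 35 in replicate 3 and rank 5 in replicate 4. Next came Dlg5/CG4970 with 5058, whose summit lay 257 bp inside Dlg5, a membrane scaffold gene, and which ranked 10 in replicate 3 and 41 in replicate 4. The third was at Pi3K92E, a phosphoinositide 3-kinase catalytic subunit, and Lrrk, a leucine-rich repeat kinase, with 4970.1 and ranks of 20 and 23. Its summit was 482 bp from the TSS of Lrrk, close to the limit of 500 bp. All of the 20 highest members ranked within 149 in replicate 3 and within 136 in replicate 4.

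The functions of these 20 pairs were mixed. The pair CG30472/Stacl had 4861. Signalling genes were at Ac78C/chb with 4674, where Ac78C encodes an adenylyl cyclase and chb a microtubule-binding protein, and at PNPase/Gprk2 with 3362, where Gprk2 is a G protein-coupled receptor kinase. The pair bol/Dhpr had 3100.1 and ranks of 70 and 84. Dhpr encodes dihydropteridine reductase, which recycles the pterin cofactor of amine synthesis, and Pu, in the pair CG4286/Pu with 3758, encodes the enzyme that starts pterin synthesis. Developmental genes were at pll/TfIIA-L with 2968, where pll is the kinase of the Toll pathway, at dgo/Prosbeta5 with 2922, where dgo acts in planar polarity, and at Cad87A/CG31211 with 3681, where Cad87A encodes a cadherin. Genes of basic functions were also present. They included MED15 of the Mediator complex (CG4297/MED15, 3463), the TFIIH subunit gene Ssl1 (Chro/Ssl1, 3295) and the mitochondrial ribosomal protein genes mRpS23, mRpS10 and mRpL41, in pairs with 3125, 3023 and 2853. The remaining pairs were CG8089/CG7544 with 3614, CG11309/CG7632 with 3424, RpL34b/CG8132 with 2939.6 and pbl/CG8281 with 2904, where pbl acts in cytokinesis. Summits were not always near the gene described. They lay 635 bp from the paired TSS of MED15, 574 bp from that of Gprk2 and 800 bp from that of chb, all beyond 500 bp. The partner was also nearer for Ssl1 (179 bp), mRpS23 (388 bp), mRpS10 (131 bp), dgo (48 bp) and pbl (427 bp). For Ac78C, Dhpr, Pu, pll, Cad87A and mRpL41 the gene itself was nearer.

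The share of summits between the 2 TSSs was higher than the share of the window length that lies there. Of the 967 members, 606 (62.7%, 59.6 to 65.7) lay between the TSSs, a stretch that took up 25.8% of the window length on average. Another 182 lay downstream of the minus-strand TSS and 179 downstream of the plus-strand TSS. Of the 606, 290 were nearer to the minus-strand TSS, 315 nearer to the plus-strand TSS and 1 equally near, a nearly even split between the strands. The median distance to the nearer TSS was 84 bp (quartiles 39 and 135), and 558 members (57.7%) lay within 100 bp of it.

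**Figure D1:**
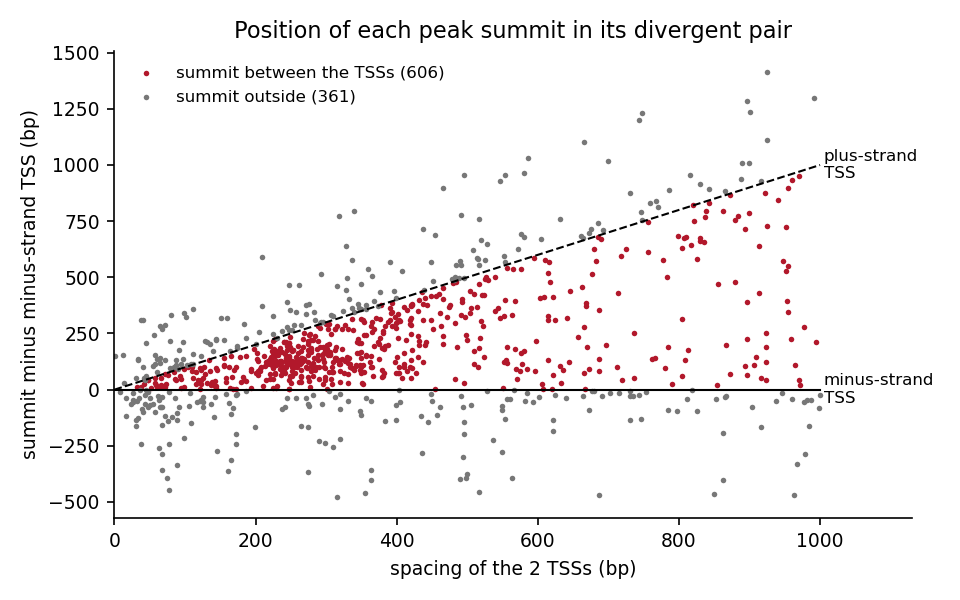
Position of each of the 967 summits in its pair: the x axis is the spacing of the TSSs in bp and the y axis the distance of the summit from the minus-strand TSS in bp, positive towards the plus-strand TSS. Red points (606) lie between the minus-strand TSS (solid line) and the plus-strand TSS (dashed line), grey points (361) outside; points gather between the lines at spacings of 201 to 300 bp.

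The position of the summit changed with the spacing of the pair. At spacings of 1 to 100 bp, 23.2% of 112 members lay between the TSSs, and at 101 to 200 bp 52.5% of 99 did. The share was 81.6% (75.9 to 86.2) of 217 members at 201 to 300 bp, 70.6% of 269 at 301 to 500 bp and 59.6% of 270 at 501 to 1000 bp. The stretch between the TSSs took up 5.63%, 12.8%, 20.2%, 27.8% and 41.5% of the windows in these ranges. At 201 to 300 bp, 99 of the 177 summits between the TSSs (55.9%) lay in the central part when the gap was divided into 3 equal parts. With wider spacing the summits stayed near 1 of the TSSs, with a median distance of 101 bp at 301 to 500 bp and 108.5 bp at 501 to 1000 bp, against 85 bp at 201 to 300 bp.

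Spacing had a smaller relation to whether a pair had a summit at all. The share of pairs with a summit was 31.7% (27.5 to 36.3) at 1 to 100 bp, 31.9% (27.3 to 36.9) at 101 to 200 bp, 39.5% (35.5 to 43.7) at 201 to 300 bp, 38.1% (34.5 to 41.8) at 301 to 500 bp and 31.2% (27.9 to 34.9) at 501 to 1000 bp. The intervals of neighbouring ranges overlapped, and those of 201 to 300 bp and 501 to 1000 bp did not. The median spacing was 300.5 bp in pairs with a summit and 302 bp in pairs without one. Median signal was highest at 201 to 300 bp, at 454 (95% interval 414 to 497). It was 402, 393, 345 and 363 in the other ranges from narrow to wide. The interval at 201 to 300 bp overlapped those at 1 to 100 bp (356 to 517) and 101 to 200 bp (336 to 487). It did not overlap those of the wider ranges.

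**Figure D2:**
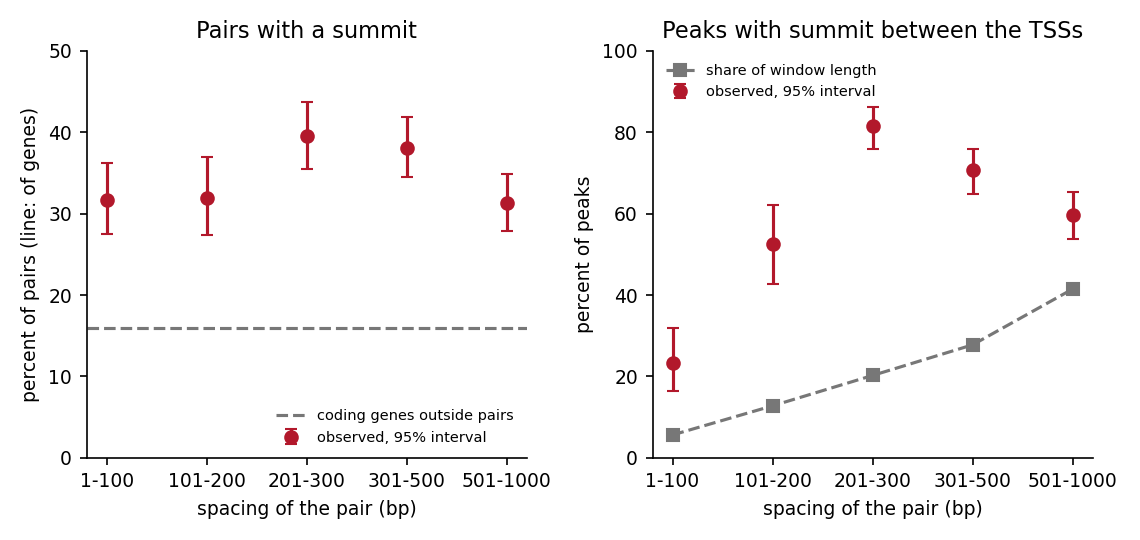
Left: share of divergent pairs with an optimal summit, in percent, by spacing of the TSSs in bp, with Wilson 95% intervals, from 31.2% to 39.5%; the dashed line is the 15.9% of coding genes outside pairs with a summit. Right: share of peaks with the summit between the TSSs, in percent, by the same ranges, above the share of window length between the TSSs (grey squares) in every range.

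Cytosolic ribosomal protein genes had the highest share of pairs with a summit among 17 gene lists. The lists were name patterns, and 34.4% of all genes in pairs belonged to a pair with a summit. Cytosolic ribosomal protein genes encode the parts of the cytoplasmic ribosome. Of 89 such genes, 55 lay in divergent pairs, and 48 of these 55 (87.3%) were in pairs with a summit. Counted by their own TSSs, 47 of the 55 (85.5%) had a summit within 500 bp, against 25 of 34 outside pairs (73.5%), so a high share was not limited to pairs. The 60 members at these genes had signals of 196 to 2939.6 with a median of 598, and in 45 of 60 the summit was nearer to the TSS of the ribosomal protein gene than to that of its partner. Their median distance to the nearer TSS was 33.5 bp, against 84 bp over all members.

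The highest of these members were RpL34b/CG8132 with 2939.6, JhI-21/RpL7-like with 1874, RpS27/Nup37 with 1647 and Ripalpha/RpL7 with 1499.6. RpS27 and RpL7 had better ranks in replicate 4 (158 and 197) than in replicate 3 (548 and 652), and RpL34b and RpL7-like had worse ones (136 and 345 in replicate 4, 62 and 179 in replicate 3).

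Mitochondrial ribosomal protein genes were more often divergent, but a summit was less common at them. Of 75 such genes 59 lay in pairs (78.7%, against 61.8% of the cytosolic ones), and 27 of these 59 (45.8%) were in pairs with a summit. Counted by their own TSSs, 25 of the 59 had a summit within 500 bp, against 1 of the 16 outside pairs. The 29 members at them had a median signal of 340, and in 8 of the 29 the summit was nearer to the mitochondrial ribosomal protein gene. The highest besides the 3 named above was Ns1/mRpS11 with 1504, where Ns1 encodes a nucleostemin-family GTPase, and it ranked 354 in replicate 3 and 351 in replicate 4.

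Among other lists for translation, the pair of a gene had a summit, near either of its TSSs, for 16 of 28 paired genes of tRNA and rRNA processing (57.1%), 10 of 23 aminoacyl-tRNA synthetase genes (43.5%) and 11 of 27 translation factor genes (40.7%). Examples were Trmt6/Ent2 with 1684, where Trmt6 is a subunit of a tRNA methyltransferase, Ns2/POSH with 1345, GlnRS/RIOK2 with 1577 and eIF4EHP/CG18428 with 2706. The gene eIF4EHP encodes a cap-binding repressor of translation. These shares were above the 34.4% of all genes in pairs, but each rests on fewer than 30 genes.

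Lists for other basic functions lay on both sides of that background. By the same measure, the pair had a summit for 15 of 35 chromatin regulators (42.9%), with brm/Arl1 at 1453, Cp190/CG4338 at 1275 and E(z)/Cnep1r2 at 952; brm encodes the ATPase of a remodelling complex, Cp190 an insulator protein and E(z) the H3K27 methyltransferase. For vesicle trafficking genes it was 31 of 77 (40.3%), among them Sec15/rtet with 1871, where Sec15 is an exocyst subunit. For proteasome genes it was 10 of 26 (38.5%), led by dgo/Prosbeta5, and for genes of general transcription and Mediator 18 of 55 (32.7%). For mitochondrial import genes it was 3 of 7, at CG8229/Tom7, Tim10/Ppcdc and Nadk1b/Roe1, with signals of 241 to 564.

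Lower shares were found for oxidative phosphorylation genes with 12 of 47 (25.5%), nuclear pore and transport genes with 6 of 27 (22.2%), DNA replication and repair genes with 7 of 38 (18.4%) and splicing genes with 6 of 32 (18.8%). At replication and repair genes, where 7 members had 1 listed gene, the summit was nearer to the partner in all 7, of which 3 share the pair CG31064/PolA2. Examples are mrva/mus312 with 1197, where mus312 acts in DNA repair, and CG31064/PolA2 with 1053. For oxidative phosphorylation the highest was Secp43/ND-B8 with 1069, followed by ND-ASHI/Fum1 with 1058, which had no overlapping peak in the list of replicate 3 and ranked 393 in replicate 4.

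Of 39 pan-neuronal and synaptic genes 10 were in pairs (25.6%, against 36.2% of all coding genes), and 3 of these belonged to a pair with a summit, at Syt14/CG9795 with 1557, CG11523/Csp with 824 and Gld/Syt4 with 249. In CG11523/Csp the summit lay 15 bp from the TSS of CG11523 and 718 bp from that of Csp. Counted by their own TSSs, 4 of the 10 had a summit within 500 bp, against 12 of 29 outside pairs (41.4%). Of 33 axon guidance genes 7 were in pairs (21.2%), and the pairs Sema1b/HPS4, trio/CG9205 and CG7213/Dscam4 had summits with signals of 204 to 259, below the lower quartile of the members. By their own TSSs 3 of the 7 had a summit within 500 bp, against 16 of 26 outside pairs (61.5%) and 15.9% of all coding genes outside pairs. These lists hold few paired genes. None of the 6 Snail-family genes lay in a divergent pair.

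In 20 members both genes of the pair were on a list, counting pairs with 2 summits by each summit. The highest were RpS27/Nup37 with 1647, Ns1/mRpS11 with 1504 and brm/Arl1 with 1453. Dref/RpL13 joined the gene of the DRE-binding factor to a ribosomal protein gene, with a signal of 787, a spacing of 84 bp and ranks of 1133 in replicate 3 and 883 in replicate 4. Both genes were on the same list in Exo84/Vps2, with 673, and in RPA1/Mcm2, with 358, which pairs a single-strand DNA-binding protein with a subunit of the replicative helicase.

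The replicates agreed for most members. Of the 967, 785 (81.2%, 78.6 to 83.5) overlapped a peak among the 6407 best of both replicates. The share was 78.8% (76.8 to 80.5) at other coding promoters, 76.2% away from coding promoters and 77.7% over all optimal peaks. The optimal list was made from these replicates, so the shares describe the list and are not independent evidence of agreement. In the full lists, 923 members (95.4%) overlapped a peak of replicate 3 and 964 (99.7%) a peak of replicate 4. The 44 members without a listed peak in replicate 3 had a median optimal rank of 3185. At other coding promoters the share with a listed peak in replicate 3 was 97.8% and thus above that of the members. Over the 920 members listed in both, the Spearman correlation of the ranks was 0.78, a description of peaks that share libraries and are not independent.

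Some members ranked far apart. In favour of replicate 3 they were Hat1/Rpn5, with rank 3676 in replicate 3 and 24493 in replicate 4, Elp6/Dic1 (1233 and 6510), Ythdc1/CG12010 (848 and 4298) and CG33303/dpr19 (2044 and 10243). In favour of replicate 4 they included TppII/ND-MWFE, with rank 23131 in replicate 3 and 1848 in replicate 4, Oda/SmD3 (14036 and 1171) and B4/kuz (10735 and 1533). These 3 had signals of 350 to 464, and the 4 that favoured replicate 3 had signals of 194 to 464. A rank is that of the best overlapping replicate peak. The pair Ythdc1/CG12010 had 2 summits, so the ranks given for it may belong to the other summit.

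The direction of the rank difference went with gene class and sequence. Of the 920 members listed in both replicates, 417 (45.3%) ranked better in replicate 4 and 499 in replicate 3. These counts and the shares below leave out members without a listed peak in a replicate. There were 44 of those for replicate 3 and 3 for replicate 4. Members at cytosolic ribosomal protein genes ranked better in replicate 4 in 48 of 57 cases (84.2%, 72.6 to 91.5), with a median rank of 918 in replicate 4 and 1731 in replicate 3. Members with the 6-mer GCAACA within 100 bp of the summit and no ribosomal protein gene did so in 78 of 262 (29.8%, 24.6 to 35.6). Members with neither did so in 291 of 601 (48.4%). The 13 members that had both a ribosomal protein gene and GCAACA went with the ribosomal group, 11 of them being better in replicate 4. The same direction with GCAACA was seen outside divergent pairs, with 39.5% against 56.8% without it at other coding promoters, and 27.3% against 53.3% away from promoters. The read depth of each replicate is not known here, and its part in this difference was not tested.

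**Figure D3:**
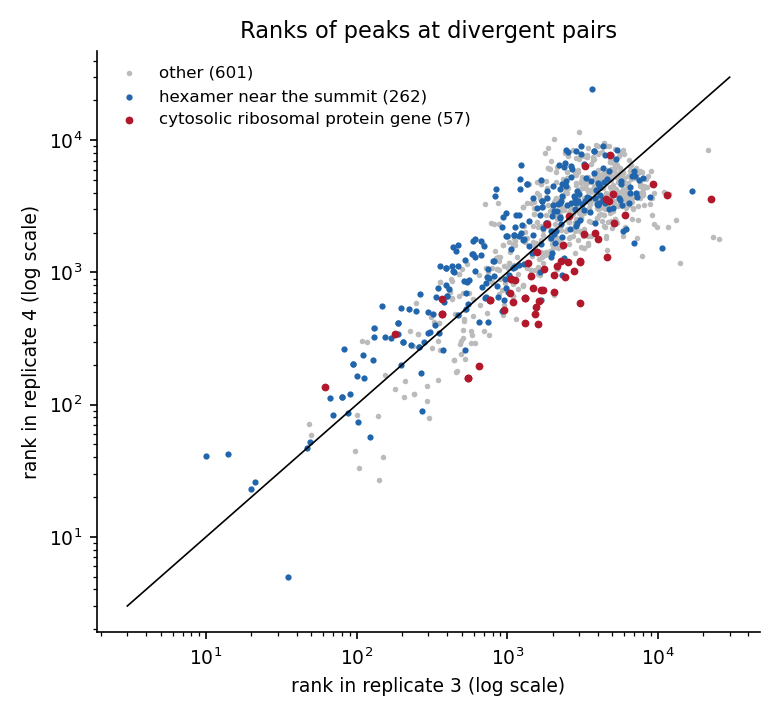
Rank of the 920 members that overlap a listed peak in both replicates, replicate 3 on the x axis and replicate 4 on the y axis, both on a log scale; the line marks equal ranks. Members at cytosolic ribosomal protein genes (red, 57) lie mostly below the line, and other members with the hexamer GCAACA (blue, 262) mostly above it.

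Sequence around the summits differed between the members and peaks at other promoters. Exact matches on either strand, up to 100 bp from the summit, were counted, and the same windows of 201 bp around 19252 coding TSS positions gave the background. The DRE TATCGATA was found at 97 of 967 members (10.03%, 8.29 to 12.1), against 2.82% (2.16 to 3.67) of peaks at other coding promoters and 6.45% of all coding TSSs. The paired TSSs themselves held it in 12.2% and the other coding TSSs in 3.84%, so the share at the members was close to that of divergent promoters in general. Motif 1 was at 3.93% of members, against 2.34% at other coding promoter peaks and 4.42% of all coding TSSs, and at 8.38% of paired TSSs. The windows of members were centred on summits and those of paired TSSs on the TSS. The motif 1 difference between these 2 sets depended on window size. Within 50 bp the shares were 1.86% of members and 6.78% of paired TSSs. Within 200 bp they were 8.69% and 9.72%, with overlapping intervals. GAGAGA was less frequent at members than at peaks at other coding promoters, with 5.89% (4.58 to 7.56) against 17.4% (15.7 to 19.1). All coding TSSs held GAGAGA in 9.74%. Paired TSSs held GAGAGA in 6.68%, close to the members. TATAAA was at 32.9% of members and at 26.9% both of peaks at other coding promoters and of all coding TSSs. The median GC content of the windows was 38.3% for the members, against 41.8% at other coding promoter peaks. TATAAA holds only A and T, so its share depends on this content, and a match need not be a working TATA box. The part of base content in its difference was not tested.

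Within 100 bp of the summit, the E-boxes differed less between members and peaks at other coding promoters. CAGCTG (E-box A) was at 18.7% (16.4 to 21.3) of members, against 15.9% (14.3 to 17.6) of peaks at other coding promoters and 13.4% of all coding TSSs, and at 17.6% of paired TSSs. CAGGTG (E-box B) was at 9.20% (7.54 to 11.2) of members, 7.40% (6.30 to 8.67) of other coding promoter peaks and 6.67% of all coding TSSs. Away from coding promoters CAGCTG was at 9.21% (8.30 to 10.2) of optimal peaks and CAGGTG at 7.41%. Within 200 bp CAGCTG was at 33.4% (30.5 to 36.4) of members and 26.6% (24.7 to 28.7) of other coding promoter peaks. CAGGTG was at 17.8% (15.5 to 20.3) and 13.2% (11.7 to 14.8) there, and neither pair of intervals overlaps. Within 100 bp, CAGCTG was more frequent at narrow pairs. It was at 29.5% and 30.3% for spacings of 1 to 100 and 101 to 200 bp, against 11.1% at 501 to 1000 bp. GCAACA, which was known from these peaks to be frequent at their summits, was at 29.1% (26.3 to 32.0) of members, 31.0% of other coding promoter peaks and 15.8% of all coding TSSs. It was at 52.3% (43.0 to 61.4) of the 109 members among the 500 best optimal peaks and at 19.9% of the 281 members of ranks 4001 to 6407. At other coding promoters these shares were 45.5% and 24.8%. Of the 20 highest members, 12 had it.

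**Figure D4:**
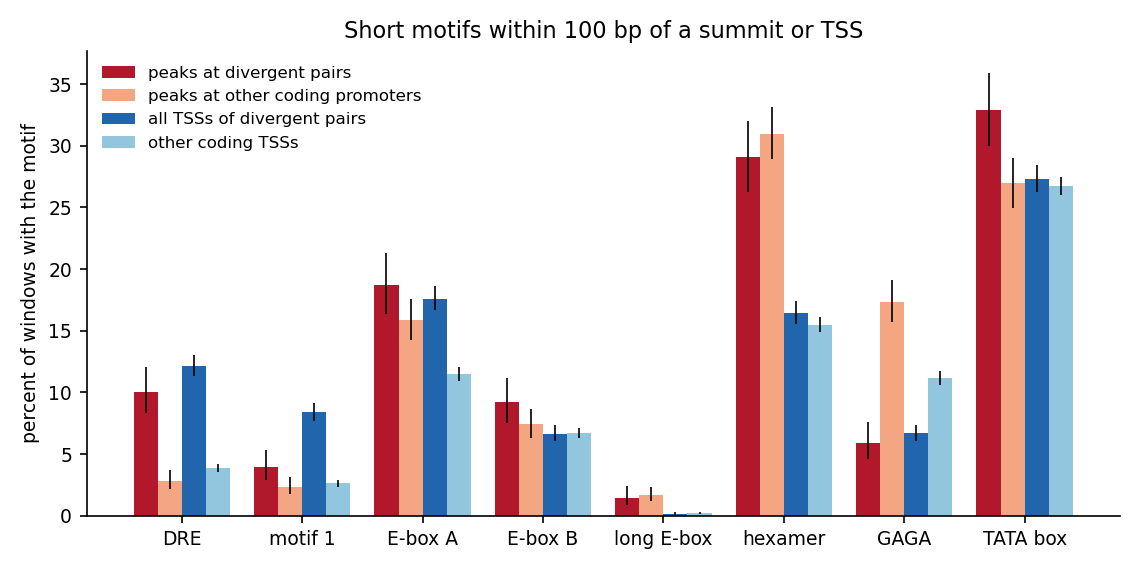
Share of windows, in percent, with each motif within 100 bp of the summit or TSS, with Wilson 95% intervals, for peaks at divergent pairs, peaks at other coding promoters, all paired TSSs and the other coding TSSs. E-boxes A and B are the shorter E-boxes as named in the text, the hexamer is GCAACA and GAGA the GA repeat; peaks at pairs have the DRE in 10.03% and GAGA in 5.89%, and peaks at other promoters in 2.82% and 17.4%.

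Ribosomal protein members had the DRE more often than the other members and TATAAA less often. The DRE was at 16 of the 60 (26.7%, 17.1 to 39.0), against 81 of the 907 others (8.93%, 7.24 to 10.96). TATAAA was at 10 of the 60 (16.7%, 9.31 to 28.0), against 34.0% (30.9 to 37.1) of the others. GCAACA was at 14 of the 60 (23.3%, 14.4 to 35.4), against 29.4% of the others, and CAGCTG at 6 of the 60 (10%), against 19.3%. CAACAGGTG was at 0 of the 60, with an interval that reaches 6.02%. The DRE and motif 1 occurred together at 2 members, and 834 members had neither.

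The long E-box CAACAGGTG, which contains CAGGTG, was rare but went with high signal. It was at 14 of 967 members (1.45%, 0.864 to 2.42), 1.65% of peaks at other coding promoters and 0.192% of all coding TSSs. The 14 members had a median signal of 1125 (quartiles 1008 and 1357), against 385 for the other 953. Of the 14, 1 had no listed peak in replicate 3 and ranked 864 in replicate 4. In the other 13 the replicate ranks could be compared, and 1 of these ranked better in replicate 4. Of these sites, 5 are given as the motif in capitals with 10 bases on either side on the strand that reads CAACAGGTG, to show the bases around the motif. They were chosen after their values were seen, as the highest by signal that were eligible for printing.
Trmt6/Ent2 (chr2L:6561686-6561714, minus strand): taatcacatgCAACAGGTGactagattac
GABA-B-R2/CG6800 (chr3R:21776001-21776029, plus strand): aaacatcctgCAACAGGTGgtcccatcag
bocks/CG8312 (chr3R:9591323-9591351, plus strand): atcgaacgcgCAACAGGTGttcaatcgca
CG10194/CG18094 (chr2L:19490149-19490177, minus strand): catctgactaCAACAGGTGgtgggtattt
Drep4/Uvrag (chr2L:13285957-13285985, plus strand): gacgttccatCAACAGGTGgttagctcta
The motif centre lay 33, 3, 2, 8 and 15 bp from the summit in the order printed. The signals were 1684 for Trmt6/Ent2, 1662 for GABA-B-R2/CG6800, 1413 for bocks/CG8312, 1189.6 for CG10194/CG18094 and 1171 for Drep4/Uvrag. GABA-B-R2 encodes a subunit of the metabotropic GABA receptor and Ent2 a nucleoside transporter. The ranks of GABA-B-R2/CG6800 were 279 in replicate 3 and 296 in replicate 4. With GCAACA the median signal was 472 (n = 281) and without it 363 (n = 686). Motif 1 had the opposite sign, with a median of 295 in the 38 members that held it and 393 in those without it.

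In 9 pairs 3 summits were members. At Cftr/Esyt2 the 3 summits had signals of 1679, 1276 and 759, all between TSSs 805 bp apart, and they matched the same peak of each replicate, at rank 260 in replicate 3 and 274 in replicate 4. At Elp6/Dic1, where Elp6 is a subunit of Elongator, the signals were 1642, 464 and 215. Ribosomal protein genes were among them at CG13531/RpL23 and RpS5a/Chchd2, with highest signals of 1307 and 791. Pairs without a ribosomal protein gene included CG31064/PolA2, kra/SecS, imd/Dp1 and Tailor/alphaTub84B, with highest signals of 573 to 1053. Their summits were separate rows of the peak list and were each counted.

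The summits just within 500 bp of a TSS were at Drep4/Uvrag (476 bp, signal 1171), Pi3K92E/Lrrk (482 bp, 4970.1) and CG31041/alph (489 bp, 278). Just beyond it were Nup188/CG13148 (502 bp, 851), ATPsynCF6/Sec13 (508 bp, 479.5) and Mhcl/Akt (516 bp, 228). Pairs just within 1000 bp were Gnpat/CG5112 (994 bp, 198), hts/CalpA (999 bp, 415) and RpS7/Anp (1000 bp, 558), and pairs just beyond it were nero/CG1910 (1001 bp, 219.6), Rgk1/CG11961 (1007 bp, 195) and CG17267/CG42322 (1008 bp, 359.7).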

How the data were processed

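Peak lists of ChIP-seq in 2 samples, replicates 3 and 4 of 1 group, were used as deposited by the authors, on assembly dm6 per the labels. Per the file listing, peaks were called for each replicate and their pool, and the optimal list was set by an IDR threshold. No caller, aligner or threshold is given in the sources used here. Signal values are the authors' enrichment per peak, as deposited. The deposited −log10 q-value was at a ceiling for most peaks and was not used. Protein-coding TSSs came from Ensembl release 115 and sequence from the RefSeq copy of the same build (Release 6). A match between lists was an overlap of at least 1 bp, with the best rank taken. Motifs were searched as exact strings on both strands up to 100 bp from a summit. Shares have Wilson 95% intervals, and no p-value was computed, since peaks are not replicates. The procedures were tested on simulated data. Named genes were the pairs of the 20 highest members, up to 4 pairs per list, pairs with both genes listed, 4 members per replicate with the largest rank ratio, pairs with 3 or more members and those at the limits. Of these, 2 pairs are not reported here. The members, lists and motifs were chosen with earlier results of these data known, and spn-E and spn-F, which are not repair genes, were taken off a list after values were seen. Alternatives covered windows, spacing, TSS choice, merging of summits, the stronger peaks, single replicates, overlap and motif windows. Computations used Python 3.11.15, numpy 2.4.6, pandas 2.3.3, scipy 1.17.1 and matplotlib 3.10.9.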

Additional observations from a re-analysis of the deposited data

How the results depend on the processing

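The count of 967 members stayed between 718 and 1120 when the window, the spacing limit, the choice of TSS, the merging of summits or the replicate was changed. A summit window of 1000 bp gave 38.17% of pairs with a summit and 54.11% of summits between the TSSs. With the most upstream TSS of each gene only, 58.24% lay between. Only the optimal peaks above the median signal of the list gave 572 members, 22.38% of pairs, a median signal of 604, 66.08% between the TSSs and 94.23% among the leading peaks of both replicates; it holds fewer peaks by construction. Requiring overlap of at least 50% of the optimal peak gave 73.73% among the leading peaks of both replicates. With a single replicate, 33.78% to 37.98% of pairs had a summit, 61.35% to 62.82% of summits lay between the TSSs and members numbered 965 to 1030. Motif shares followed the window: within 50 and 200 bp of the summit they were 5.377% and 15.93% for TATCGATA, 1.861% and 8.687% for GGTCACACT, 9.721% and 33.4% for CAGCTG, 5.067% and 17.79% for CAGGTG, 17.17% and 45.6% for GCAACA, 2.896% and 13.34% for GAGAGA, and 17.79% and 51.29% for TATAAA. No paired analysis was possible because both samples belong to 1 group. The median signal and the share among both replicates' leading peaks could not be computed from a single replicate on the same scale. Read depth is unknown, so a pair without an optimal summit is one without a peak past the authors' threshold, and not one shown to be unbound.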

Other observations

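The share of peaks at divergent pairs fell with rank more steeply than that at other coding promoters in the pooled list of 30000 peaks, of which the optimal list is the best part. At ranks 1 to 500, 21.8% (18.4 to 25.6) of peaks were at divergent pairs and 40.4% at other coding promoters, a ratio of 0.54. At ranks 4001 to 6407 the shares were 11.7% and 26.0%, and the ratio was 0.45. At ranks 20001 to 30000, far below the IDR threshold, they were 2.28% (2.01 to 2.59) and 10.3%, and the ratio was 0.22.

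The midpoints of pairs were searched for the same motifs, in windows that were not placed by a summit. The pairs were still split by having a summit, and GCAACA was known from these same peaks. The shares are therefore a description and not an independent check. GCAACA was within 100 bp of the midpoint in 16.4% (14.1 to 18.9) of the 928 pairs with a summit and in 11.2% (9.82 to 12.8) of the 1739 without one. Motif 1 was at 2.91% (2.01 to 4.20) of midpoints with a summit and 5.12% (4.18 to 6.26) without one. These intervals just overlap. Within 200 bp of the midpoint the motif 1 shares were 9.70% and 11.2%, with overlapping intervals. Within 50 bp they were 1.08% (0.586 to 1.97) and 2.76% (2.09 to 3.64), and those intervals do not overlap. The GCAACA shares were 34.8% (31.8 to 37.9) and 24.1% (22.1 to 26.2) within 200 bp. Within 50 bp they were 8.84% (7.18 to 10.8) and 6.50% (5.43 to 7.76), with overlapping intervals. Within 100 bp the DRE was at 9.27% and 8.17%, TATAAA at 39.9% and 39.7% and GAGAGA at 4.74% and 5.69% of midpoints with and without a summit. The intervals of each of these overlapped. CAGCTG was at 14.7% (12.5 to 17.1) and 11.7% (10.2 to 13.3) within 100 bp, with overlapping intervals. Within 50 bp it was at 7.22% and 6.50%, also with overlapping intervals. Within 200 bp it was at 31.0% (28.1 to 34.1) and 21.5% (19.6 to 23.5), and those intervals do not overlap. CAGGTG was at 5.17% and 4.60% within 100 bp, with overlapping intervals. CAACAGGTG was within 100 bp of 5 of the 928 midpoints with a summit and 0 of the 1739 without one.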
